A study of Mus musculus with 6 samples.

Results

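The pore-forming and auxiliary subunits of voltage-gated calcium channels were followed in hippocampal chromatin as 10 genes: Cacna1a, Cacna1b, Cacna1c, Cacna1d, Cacna1e, Cacna1g, Cacna1h, Cacna1i, Cacna2d1 and Cacna2d3. They were listed by name, and they are 10 of 37273 genes annotated by GENCODE in the mouse genome mm9 (NCBIM37), of which 22367 are protein-coding. The tissue came from C57/BL6 mice aged 6 months. Mice of the FC group underwent contextual fear conditioning, in which a foot shock is given in a context, in sessions on consecutive days, and mice of the control group (CON) were placed in the context without a shock. Tissue was taken an hour after a memory test on the day that followed the last session. For each of the 2 groups there was 1 library from chromatin immunoprecipitated with an antibody to histone H4 acetylated at lysine 5 (H4K5ac-ChIP), 1 from a mock immunoprecipitation with IgG (IgG-IP) and 1 of input DNA, so that there are 6 libraries and no replicates. The spread between animals is thus unknown, and groups could not be tested against each other. All intervals are 95% intervals that cover counting error only, and a comparison of FC with CON compares a pair of libraries. The labels do not say how many animals stand behind a library, and the whole hippocampus is a mixture of cells, so that fewer cells carrying the mark and less of the mark per cell cannot be told apart.

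Voltage-gated calcium channels open when the membrane is depolarised and let calcium into the cell, which couples the electrical activity of a neuron to transmitter release, to firing and to gene expression. The alpha1 subunit forms the pore and sets the type of current. Cacna1c (Cav1.2) and Cacna1d (Cav1.3) give L-type currents, Cacna1a P/Q-type, Cacna1b N-type and Cacna1e R-type currents, and Cacna1g, Cacna1h and Cacna1i give low-threshold T-type currents. Cacna2d1 and Cacna2d3 encode alpha2delta subunits, extracellular auxiliary proteins that raise the number of channels at the membrane. Acetylation of H4 at lysine 5 is a mark of accessible and transcribed chromatin, and both L-type and presynaptic channels have long been studied in hippocampal plasticity.

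The libraries held 14549689 to 45673239 aligned reads, with 31605738 and 35962226 in H4K5ac-ChIP of FC and CON, and 11.5% to 17.8% of the reads of a library began at the same place and strand as another read. Across the gene bodies of 5 neuronal markers (Rbfox3, Snap25, Syt1, Camk2a and Gad1) the log2 ratio of H4K5ac-ChIP to IgG-IP had a median of 0.82 in FC (CON 0.76), whereas it was -0.14 and -0.31 for 5 genes of tissues other than brain (Alb, Myh7, Ins2, Krt5 and Cd3e), which ranged from -1.04 to 1.32 in FC. Medians for 4 markers each of astrocytes, oligodendrocytes and microglia were 0.83, 1.46 and 0.85 in FC. The medians of neuronal and glial genes thus lay above that of genes from other tissues. All 4 oligodendrocyte markers had a higher density in FC than in CON, as did 11419 of 19455 protein-coding genes tested, whose median log2 ratio was 0.04. The median was 0.22 for oligodendrocyte, 0.18 for microglial, 0.09 for neuronal and -0.02 for astrocyte markers. Input gave 0.54, 0.50, 0.47 and 0.39 in the same order. The part of cell composition in the comparisons of FC with CON was not tested. Reads within 500 bp of a CpG-rich start could be very few in all 6 libraries, for instance 3 and 6 reads at the coding start of Cacna1a in CON and FC input and 5 in each H4K5ac-ChIP library, so that no shape of the mark at the start itself was read from these data.

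H4K5ac stood above IgG-IP over most of the body of the calcium channel genes. Its read density, before division by a control, was highest over Cacna1c, which encodes the main L-type channel of the brain. As a ratio over IgG-IP it was highest over Cacna1h in both groups, and over input it was highest over Cacna2d3 in FC and Cacna1h in CON. Density is given as RPKM, reads per kilobase of gene, scaled to the size of the library, and a gene body ran from the first annotated transcription start site (TSS) to the last termination site (TTS). Cacna1c (604 kb) held 17148 reads in FC H4K5ac-ChIP, 18683 in CON H4K5ac-ChIP, 3489 and 4159 in FC and CON IgG-IP, and 17321 and 9992 in FC and CON input. These counts gave densities of 0.898 (0.885 to 0.912) in FC and 0.860 (0.848 to 0.873) in CON, and both lay above every control library of the gene. In FC the density was next highest over the T-type gene Cacna1h, at 0.869 (0.827 to 0.912), whose interval overlapped that of Cacna1c, followed by Cacna2d3 at 0.770 and Cacna1a at 0.733. Cacna1g, Cacna1d, Cacna1e, Cacna1b and Cacna1i followed between 0.702 and 0.643, and each of these overlapped its neighbour in the order. Cacna2d1 was lowest, with intervals apart from those of all other members, at 0.423 (0.412 to 0.434) in FC and 0.489 (0.478 to 0.4997) in CON. In CON the first 3 and the last 3 genes of the order were the same, and Cacna1c and Cacna1h no longer overlapped. When each body was cut into 10 equal parts, H4K5ac-ChIP was denser than IgG-IP of its group in 96 of 100 parts in FC and 98 of 100 in CON, where 72.8% and 73.7% of the parts of all protein-coding genes of 50 kb or more were. The exceptions were parts 2 and 3 of Cacna1d in CON, part 3 of Cacna1d in FC and 3 parts of Cacna2d1 in FC. It was denser than input of its group in 78 of 100 parts in FC and 98 of 100 in CON, beside 67.3% and 72.4% in those long genes, and of the 22 parts in FC that were not, 8 lay in Cacna1i, 6 in Cacna1g and 4 in Cacna1b.

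**Figure D1:**
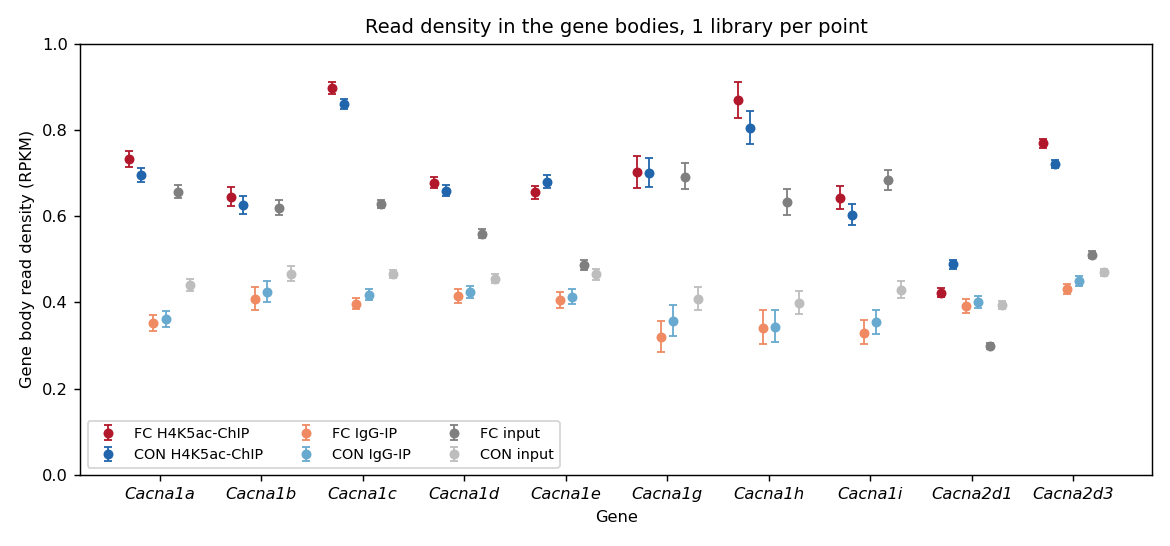
Read density in the gene body (RPKM, vertical axis) of the 10 calcium channel genes in each of the 6 libraries, with exact 95% Poisson intervals as bars. H4K5ac-ChIP reaches 0.898 over Cacna1c in FC, IgG-IP stays between 0.319 and 0.451 in all genes, and FC input runs from 0.299 (Cacna2d1) to 0.692 (Cacna1g).

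The IgG-IP libraries ran from 0.319 (Cacna1g) to 0.430 (Cacna2d3) in FC and from 0.343 (Cacna1h) to 0.451 (Cacna2d3) in CON. Both were lowest over the T-type genes, and ratios over IgG-IP carry these differences. The FC input library varied more between the genes. It was lowest over Cacna2d1, which has the lowest GC content of the 10 (37.8%), and highest over Cacna1g (53.1%) and Cacna1i (52.8%), while Cacna1h, with the highest GC content (55.7%), had 0.632, whereas CON input stayed between 0.394 and 0.470. Comparisons with input therefore carry this difference between the input libraries, and they are given beside those with IgG-IP.

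In both L-type genes and the P/Q-type gene the mark rose at an inner start and not at the first annotated start, when stretches of 25 kb or more were compared. Of the 10 first starts, 5 in FC and 6 in CON rose with an interval above 0, none of them in these 3 genes. Within 1 kb, Cacna1d was denser at its outer start (1.08 RPKM in FC, 0.626 in CON) than at its inner start (0.791 and 0.487). The first starts of Cacna1c and Cacna1d lie within neighbouring genes, and other genes cover 70.2% and 71.8% of the 50 kb upstream. These flanks held 1.00 and 0.918 RPKM in FC H4K5ac-ChIP and 0.911 and 0.891 in CON. The missing rise at these 2 first starts is thus measured against dense flanks, and the part of the neighbours in it was not tested. Cacna1a, Cacna1c and Cacna1d each have an outer start with few CpG dinucleotides and a CpG-rich inner start downstream. The sequences from 250 bases before to 50 bases after these starts are shown 5′ to 3′ in the direction of transcription, with every CpG in capitals, because these inner and outer starts differ in CpG content. They were read from NCBIM37, and the inner and outer starts of Cacna1d and the inner start of Cacna1c also match RefSeq promoters exactly. The Cacna1a inner start (chr8:86939013-86939312, plus strand) is the start of 3 coding transcripts, 26.9 kb downstream of the start of a non-coding transcript. The Cacna1c outer window is chr6:119146200-119146499 and the inner one chr6:119058464-119058763, 87.7 kb apart, and the Cacna1d windows are chr14:31304293-31304592 and chr14:31166623-31166922, 138 kb apart, all on the minus strand.
Cacna1a inner start: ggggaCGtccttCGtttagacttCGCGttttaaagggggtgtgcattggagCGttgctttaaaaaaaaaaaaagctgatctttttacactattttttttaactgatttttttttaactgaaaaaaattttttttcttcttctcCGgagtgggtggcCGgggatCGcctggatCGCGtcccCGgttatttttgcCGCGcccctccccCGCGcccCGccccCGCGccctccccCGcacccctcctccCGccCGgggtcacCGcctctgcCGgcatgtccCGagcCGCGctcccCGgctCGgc
Cacna1c outer start: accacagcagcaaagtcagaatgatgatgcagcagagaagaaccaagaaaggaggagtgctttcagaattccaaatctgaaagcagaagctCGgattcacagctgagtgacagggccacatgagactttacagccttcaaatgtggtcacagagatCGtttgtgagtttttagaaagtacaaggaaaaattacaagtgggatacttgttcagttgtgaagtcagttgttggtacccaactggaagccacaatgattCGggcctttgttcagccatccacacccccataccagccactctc
Cacna1c inner start: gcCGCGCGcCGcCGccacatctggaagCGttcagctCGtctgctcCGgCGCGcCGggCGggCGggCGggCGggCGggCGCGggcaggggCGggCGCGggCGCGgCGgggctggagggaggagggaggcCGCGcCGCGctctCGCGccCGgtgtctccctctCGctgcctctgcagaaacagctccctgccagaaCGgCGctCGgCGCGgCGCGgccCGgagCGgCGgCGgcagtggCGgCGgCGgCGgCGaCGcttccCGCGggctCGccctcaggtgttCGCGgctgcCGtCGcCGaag
Cacna1d outer start: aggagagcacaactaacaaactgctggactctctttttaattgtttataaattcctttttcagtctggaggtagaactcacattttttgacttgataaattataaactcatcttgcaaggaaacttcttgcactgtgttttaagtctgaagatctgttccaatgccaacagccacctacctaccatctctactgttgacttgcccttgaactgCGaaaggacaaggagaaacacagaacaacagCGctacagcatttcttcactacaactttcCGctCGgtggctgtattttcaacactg
Cacna1d inner start: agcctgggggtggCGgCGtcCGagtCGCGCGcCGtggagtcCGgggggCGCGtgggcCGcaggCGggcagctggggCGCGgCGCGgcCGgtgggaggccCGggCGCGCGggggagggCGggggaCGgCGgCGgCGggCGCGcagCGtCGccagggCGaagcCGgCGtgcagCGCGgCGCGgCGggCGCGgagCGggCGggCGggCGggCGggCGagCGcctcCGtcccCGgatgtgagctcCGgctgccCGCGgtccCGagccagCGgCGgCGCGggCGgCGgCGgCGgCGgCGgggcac
The outer windows of Cacna1a, Cacna1c and Cacna1d held 1, 3 and 4 CpGs and the inner windows 28, 57 and 63, where the median of 22362 protein-coding promoters of the same length was 11. Starts of Cacna1c that lie 416 and 438 kb into the gene, described below, held 7 CpGs each. The GC box GGGCGG was searched on both strands, and matches that overlap an earlier one on the same strand were not counted. So counted, it was found 2, 4 and 4 times in the inner windows and not in the outer ones. The CGgg repeats of the Cacna1c and Cacna1d inner windows hold further, overlapping matches. Of all promoters, 43.4% held the GC box. The TATA box, spelled TATAAA, matched 3 times in the outer window of Cacna1d, where overlapping matches on opposite strands were counted separately. It was in 0 of the other 14 windows of the members, against 13.4% of all promoters. TGACGTCA (CRE) was in 0 of 15 windows and 2.33% of all promoters, its shorter core TGACG in 5 of 15 and 23.3%, and CACGTG (E-box) in 1 of 15 and 7.79%. A match describes the letters of the window only.

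Read density rose at each of the 3 inner starts in both H4K5ac-ChIP libraries (the stretches before and after an inner start are compared here up to the ends of the gene). In Cacna1a the 26.9 kb before the inner start had 0.445 RPKM in FC and 0.452 in CON, beside 0.368 and 0.342 in IgG-IP and 0.567 and 0.424 in input of the same groups, and the 225 kb after it had 0.767 and 0.725. The rise was 1.72-fold (log2 0.78, 0.63 to 0.94) in FC and 1.60-fold (log2 0.68, 0.54 to 0.82) in CON. IgG-IP showed no such rise, with log2 values of -0.07 (-0.32 to 0.19) and 0.09 (-0.15 to 0.34), and CON input gave 0.06 (-0.09 to 0.21). FC input rose by 0.24 (0.12 to 0.35), less than the mark but away from 0.

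In Cacna1c the first 21.0 kb of the gene overlap Dcp1b, a neighbouring gene on the opposite strand that encodes a decapping cofactor, and this stretch was left out. The remaining 66.8 kb before the inner start had 0.570 RPKM in FC and 0.510 in CON, and the 516 kb after it 0.944 and 0.908. The log2 rise was 0.73 in FC (0.64 to 0.81) and 0.83 in CON (0.75 to 0.92), compared with 0.06 and -0.01 in IgG-IP, 0.39 in FC input and -0.03 in CON input. GENCODE holds 3 coding transcripts that begin 416 kb into the gene, and no rise occurred there: the density of the 25 kb after that start was 0.81 times that of the 25 kb before it in FC and 0.83 times in CON. With sides of 10 kb the FC change at this start was 0.020 on the log2 scale, so that its direction depended on the width. At a RefSeq start a little further in, 438 kb from the first start, the 25 kb after it were denser than the 25 kb before it by 0.30 (0.15 to 0.46) in FC and 0.25 (0.09 to 0.40) in CON, compared with 0.16 (0.02 to 0.31) and 0.12 (-0.07 to 0.31) in input.

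In Cacna1d the first 11.6 kb overlap Dcp1a, the paralogue of Dcp1b. Between the end of that overlap and the inner start lie 126 kb with 0.462 RPKM in FC and 0.435 in CON, which are near the 0.434 and 0.424 of IgG-IP in the same stretch. After the inner start, the density was 0.766 and 0.750 over 314 kb. The log2 rise was 0.73 in FC (0.66 to 0.80) and 0.78 in CON (0.71 to 0.86), with -0.09 and 0.00 in IgG-IP, 0.21 in FC input and 0.03 in CON input. In all 3 genes the stretch after the inner start was thus 1.60 to 1.78 times as dense as the one before it. The stretch before it lay above both controls in Cacna1c, where IgG-IP held 0.385 and 0.421 RPKM in FC and CON and input 0.496 and 0.475. In Cacna1d it lay just above IgG-IP and below input, which held 0.506 RPKM in FC and 0.447 in CON. Rises of this size are common. When 25 kb on either side of a start were compared, the inner starts gave log2 values of 0.65 to 0.75, which lie between the 74.8 and 80.7 percentiles of the first starts of protein-coding genes of 50 kb or more (4818 tested in FC and 4820 in CON), whose medians were 0.28 in FC and 0.31 in CON. FC input rose by 0.28 to 0.35 at these starts, with intervals above 0, and CON input by 0.02 to 0.15. On this scale CON IgG-IP also rose at the inner start of Cacna1d, by 0.42 (0.11 to 0.73), while FC IgG-IP gave -0.22 (-0.55 to 0.10), and the intervals of IgG-IP at the other inner starts included 0. The inner starts were examined after the profiles of these genes had been seen, and the values are a description.

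**Figure D2:**
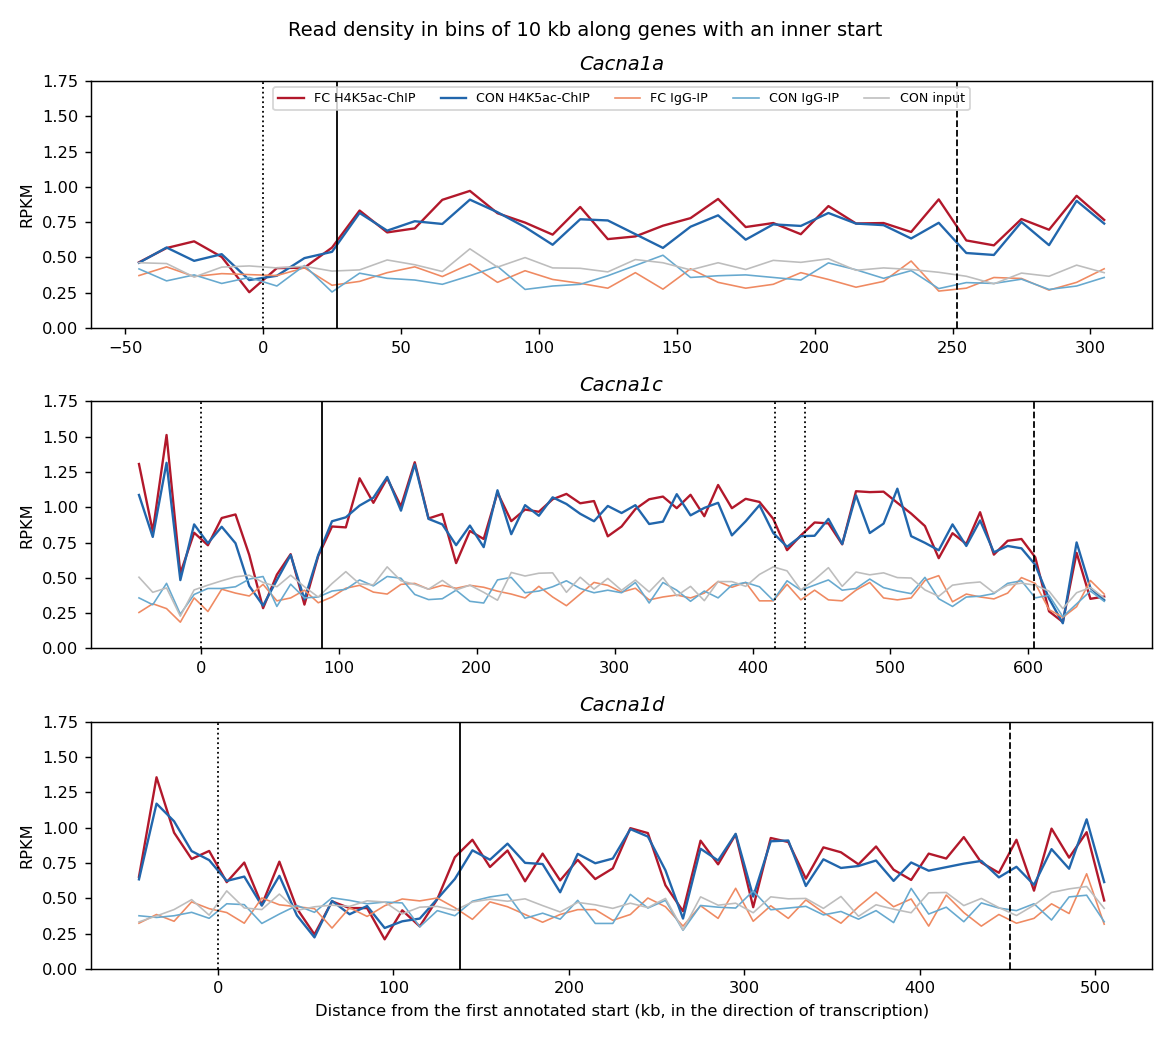
Read density (RPKM) in bins of 10 kb along Cacna1a, Cacna1c and Cacna1d, plotted against the distance from the first annotated start, with 50 kb of flank on either side. Solid vertical lines mark CpG-rich starts, dotted lines other starts and dashed lines the last annotated end. Both H4K5ac-ChIP lines rise at the solid line of each gene (at 26.9, 87.7 and 138 kb), while IgG-IP and CON input change less there. FC input, which rose at these starts by 0.21 to 0.39 on the log2 scale, is not drawn.

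The other members have their CpG-rich start, where they have one, at the first annotated start. Density rose there over Cacna2d3, from 0.416 RPKM in the 25 kb before to 0.767 in the 25 kb after in FC and from 0.370 to 0.772 in CON (log2 0.88, 0.69 to 1.08, in FC and 1.06 in CON), with IgG-IP at 0.00 and 0.01 and input at 0.38 (0.21 to 0.55) and 0.15 (-0.05 to 0.35). Over Cacna1b, Cacna1g, Cacna1h and Cacna2d1 the rise was between 0.26 and 0.46 in FC and 0.27 and 0.39 in CON, and all of these intervals lay above 0, as did 54.1% and 57.6% of those of long genes in FC and CON. Cacna1i showed no rise, with -0.10 (-0.28 to 0.09) and -0.12 (-0.30 to 0.05). Cacna1e, whose start has 11 CpGs, gave 0.02 (-0.15 to 0.20) in FC and 0.35 (0.18 to 0.51) in CON. Controls rose there too, with 0.20 (0.04 to 0.37) in FC input, 0.26 (0.06 to 0.45) in CON input and 0.39 (0.06 to 0.73) in FC IgG-IP, while CON IgG-IP gave -0.22 (-0.52 to 0.08). The upstream flank of 50 kb of Cacna1e, which holds no other gene, had 0.635 RPKM in FC against 0.655 in the body, and 0.583 against 0.680 in CON.

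At the other end of most of the genes H4K5ac-ChIP reads fell. In the 25 kb after the last TTS, 8 of 10 members in FC and 8 of 10 in CON had a density below that of the last 25 kb of the gene with an interval below 0, where 48.8% of 4817 long genes in FC and 51.3% of 4814 in CON did. The same was true of 5 of 10 members in FC input, 0 of 10 in CON input, 2 of 10 in FC IgG-IP and 4 of 10 in CON IgG-IP, and of 30.0%, 19.8%, 13.6% and 14.8% of long genes in the same order. At Cacna1a the fall in FC H4K5ac-ChIP, -0.27 (-0.44 to -0.10), was close to that in FC input, -0.22 (-0.38 to -0.06). One of these, Cacna2d3 in CON, turned to a rise of 0.13 when sides of 10 kb were used. The falls were largest for Cacna1c, Cacna1b, Cacna1e and Cacna2d1. Over Cacna1b, which encodes the presynaptic N-type channel, 465 reads in the last 25 kb were followed by 207 in FC and 550 by 244 in CON, a 2.25-fold drop in both. Over Cacna1e 543 reads were followed by 243 in FC (2.23-fold) and 606 by 277 in CON (2.19-fold). IgG-IP fell by less in these genes, by 1.27-fold and 1.29-fold at Cacna1b and by 1.43-fold and 1.42-fold at Cacna1e. FC input fell as well, by 1.58-fold at Cacna1b and 1.64-fold at Cacna1e, while CON input fell by 1.15-fold and 1.13-fold with intervals that included 0. For Cacna2d1 the drop was 2.03-fold in FC and 2.33-fold in CON, while the IgG-IP and input intervals included 0. For Cacna1c it was 2.36-fold and 1.97-fold, with IgG-IP falling by 1.37-fold and 1.54-fold and input by 1.34-fold and 1.15-fold. The H4K5ac falls of these 4 genes lay between the 3.34 and 8.43 percentiles of long genes, whose median was a log2 change of -0.20 in FC and -0.22 in CON.

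Cacna1d and Cacna1i ended without a fall, with log2 values of 0.00 and 0.15 in FC and 0.05 and 0.19 in CON. The CON value of Cacna1i had an interval above 0 (0.02 to 0.36), and CON IgG-IP rose there by 0.41 (0.07 to 0.75). Other genes cover 93.9% of the 50 kb beyond Cacna1d, among them Chdh, whose end overlaps that of Cacna1d on the opposite strand, and none of the 50 kb beyond Cacna1i. Density also fell within Cacna1h itself. When gene bodies were cut into 10 equal parts, it was between 0.973 and 1.28 RPKM in FC and 0.813 and 1.09 in CON in parts 1 to 5, and in parts 9 and 10 it was 0.404 and 0.622 in FC and 0.505 and 0.500 in CON. Cacna2d3, the longest of the genes with 817 kb, had its highest density in part 7 in both libraries, at 0.932 and 0.877 RPKM, and carried 0.760 RPKM in FC and 0.697 in CON over Lrtm1, a gene on the opposite strand within it. Exons were less dense than introns over Cacna1h, with 0.582 against 0.925 RPKM in FC and 0.554 against 0.854 in CON, and input was also lower in its exons, with 0.526 against 0.653 and 0.334 against 0.411. No common direction was seen, since exons were the denser in 5 of 10 genes in FC and 3 of 10 in CON. The densest 1-kb window of each gene in CON, read in FC, which did not choose it, had 0.882 to 2.32 times the density of the gene body, with a median of 1.70.

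**Figure D3:**
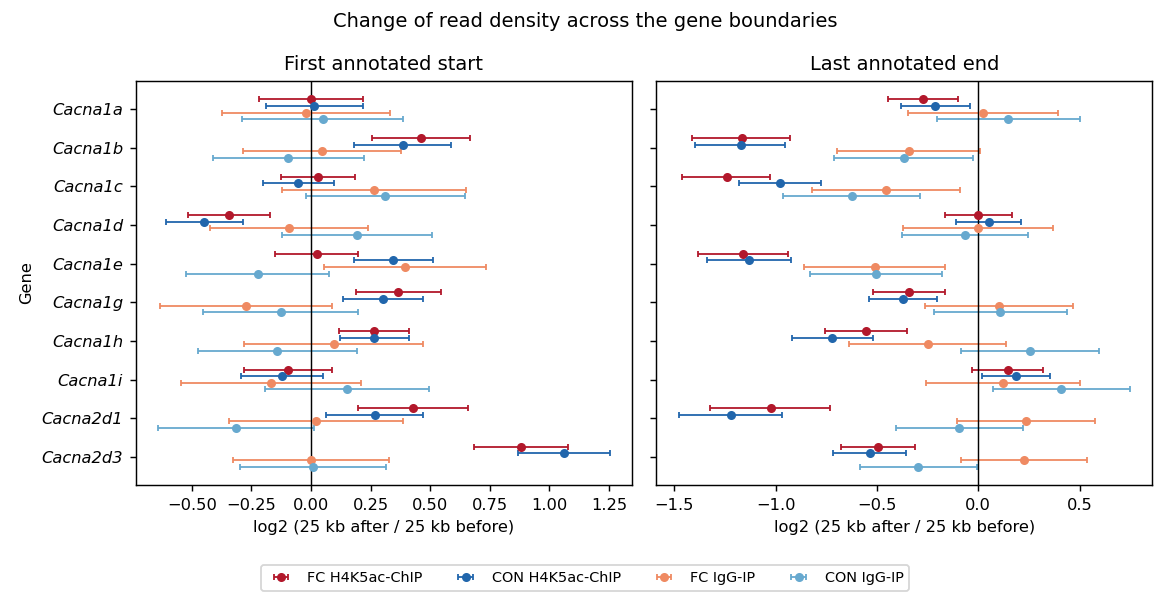
Log2 ratio of the reads in the 25 kb after a boundary to those in the 25 kb before it, at the first annotated start (left) and the last annotated end (right), for the 10 genes in the H4K5ac-ChIP and IgG-IP libraries, with exact 95% binomial intervals. At the end, H4K5ac-ChIP lies at about -1.0 to -1.2 in Cacna1b, Cacna1c, Cacna1e and Cacna2d1, and lies at or above 0 in Cacna1d and Cacna1i.

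To ask how far the mark stood above its controls, the density in the gene body was set against IgG-IP of the same group. All 10 genes had intervals above 0 in both groups, as did 65.7% of genes tested in FC and 63.5% in CON. A ratio of 2-fold or more was reached by 4 of 10 in FC (Cacna1a, Cacna1c, Cacna1g and Cacna1h), where 33.4% of 19383 genes tested reached it, and by 2 of 10 in CON (Cacna1c and Cacna1h), where 25.0% of 19428 did. Of protein-coding genes of 50 kb or more, 23.4% reached it in FC and 17.8% in CON. The counts of the channels are near these shares. After scaling to the median gene 0 of 10 reached 2-fold in either group, where 7.38% and 4.25% of all genes did, and likewise 0 of 10 after the GC correction described below, where 3.06% and 2.62% did. The median log2 ratio of the 10 was 0.90 in FC and 0.74 in CON, and that of all protein-coding genes tested 0.70 and 0.61. Cacna1h was highest, with log2 1.35 (1.17 to 1.53) in FC and 1.23 (1.06 to 1.40) in CON, and Cacna1c followed Cacna1h in both, with 1.18 (1.13 to 1.23) in FC and 1.04 (0.99 to 1.09) in CON. Cacna2d1 was lowest, with 0.11 (0.04 to 0.18) and 0.28 (0.22 to 0.35). The ratio moved with the GC content of the genes, with Spearman's rho of 0.75 in FC and 0.71 in CON over the 10 genes, which share the same libraries. Less the median of protein-coding genes in the same 1% step of GC content, Cacna2d1 stood highest at 0.49 in FC and 0.55 in CON, followed by Cacna1c at 0.41 and 0.39, and Cacna1i was lowest at -0.28 and -0.23. Over IgG-IP, the order of Cacna2d1 among the members thus turned from last to first with this correction, which was added after seeing the data.

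**Figure D4:**
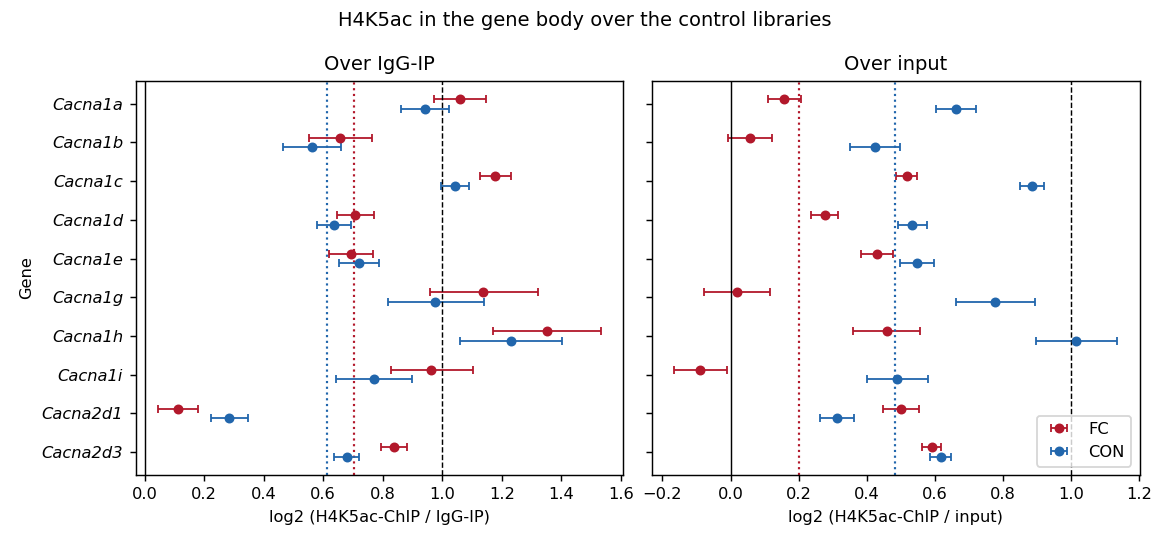
Log2 ratio of H4K5ac-ChIP to IgG-IP (left) and to input (right) in the gene body of the 10 genes in FC and CON, with exact 95% binomial intervals. Dotted lines are the medians of all protein-coding genes tested in the same colour, the dashed line is 2-fold, and Cacna1c and Cacna1h lie at or beyond it over IgG-IP in both groups.

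Over input, 0 of 10 genes reached 2-fold in FC, where 4.08% of 20528 genes did, and 1 of 10 (Cacna1h, log2 1.01, 0.90 to 1.14) in CON, where 14.5% of 20185 genes did. The median was 0.35 in FC and 0.58 in CON. Cacna2d1, last over IgG-IP, stood above that median in FC, at 0.50 (0.45 to 0.55), and was lowest in CON, at 0.31 (0.26 to 0.36). With GC content, Spearman's rho of the ratio over input was -0.55 in FC and 0.54 in CON. The ratio over input differed most between the groups in the T-type genes Cacna1g and Cacna1i. Cacna1g stood at 0.02 (-0.08 to 0.12) over input in FC and at 0.78 (0.66 to 0.89) in CON, with 2078 and 954 input reads, while its H4K5ac densities of 0.702 and 0.701 were alike. Cacna1i stood at -0.09 (-0.17 to -0.01) and 0.49 (0.40 to 0.58).

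The study was made to compare fear conditioning with exposure to the context alone. Over the bodies of the calcium channel genes the FC and CON H4K5ac-ChIP libraries, each scaled to its total, were close to each other. A change of the mark shared by the whole genome would not be seen after this scaling. On Western blots of the hippocampus the paper reports more H4K5ac than in controls after the memory test. A gene was called higher where FC stood at least 25% above CON and lower where it stood at least 20% below. By this measure 0 of 10 genes were higher, where 10.8% of 19455 genes tested were, and 0 of 10 lower, where 4.06% were. The log2 ratio of FC to CON ran from -0.21 to 0.11, with a median of 0.05, against 0.04 for all protein-coding genes and -0.01 for those of 50 kb or more. Cacna2d1 stood apart from the rest. It held 5878 reads in FC and 7729 in CON H4K5ac-ChIP, a log2 ratio of -0.21 (-0.26 to -0.16), with 2504 and 2910 in IgG-IP, a ratio of -0.04 (-0.11 to 0.04), and 6004 and 6143 in input, a ratio of -0.40 (-0.45 to -0.35). All 10 equal parts of Cacna2d1 were lower in FC, 6 of them with an interval below 0, among 8 such parts of the 100 of all members. Input was lower in FC in each of these parts too, for instance 0.276 against 0.411 RPKM in part 3. Parts of a gene share a pair of libraries and are not replicates. Cacna2d1 is also the gene with the least GC, and once the median of genes with like GC content was subtracted its ratio was -0.10.

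The other alpha2delta gene moved the other way by a small amount. Cacna2d3 held 19873 and 21185 reads in FC and CON H4K5ac-ChIP, a log2 ratio of 0.09 (0.07 to 0.12), with -0.07 (-0.12 to -0.01) in IgG-IP and 0.12 (0.09 to 0.15) in input, and less the median of its GC step the ratio was 0.08. Its 10 parts ranged from 0.04 to 0.16, and 5 had an interval above 0, among 16 such parts of the 100 of all members. Among the pore-forming genes Cacna1c gave 0.06 (0.03 to 0.09), Cacna1a 0.07 (0.02 to 0.13), Cacna1h 0.11 (0.01 to 0.21), Cacna1i 0.09 (0.01 to 0.18) and Cacna1d 0.04 (0.00 to 0.08). Cacna1e was slightly lower in FC, at -0.05 (-0.10 to -0.01), and the intervals of Cacna1b and Cacna1g included 0. Over Cacna1g the FC library held 1458 and the CON library 1657 reads, a log2 ratio of 0.00 (-0.10 to 0.10). After the GC correction, the ratios of the 8 pore-forming genes ran from -0.14 (Cacna1g) to 0.02 (Cacna1d).

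The input libraries differed between the groups by more than the mark did. In input the log2 ratio of FC to CON ran from -0.40 (Cacna2d1) to 0.76 (Cacna1g), with a median of 0.42, and it followed GC content over the 10 genes with Spearman's rho of 0.95. In IgG-IP it was below 0 in 10 of 10 genes, where 62.7% of all genes were, with a median of -0.05 against -0.06 for all protein-coding genes, and only the intervals of Cacna1c and Cacna2d3 below 0. Less the ratio of the input libraries, 6 of 10 genes would be called lower in FC, where 42.7% of all genes would be, and 0 higher (10.6%). Less that of the IgG-IP libraries, 0 of 10 would be called lower (8.29% of all genes) or higher (22.9%). Subtracting input turned the sign of 9 of the 10 ratios, with Cacna2d1 at 0.19 and Cacna1e remaining below 0, the GC correction turned 5, and subtracting IgG-IP 0. The direction of the comparison over the gene body therefore rests on the control chosen, and which library carries the GC difference was not tested.

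**Figure D5:**
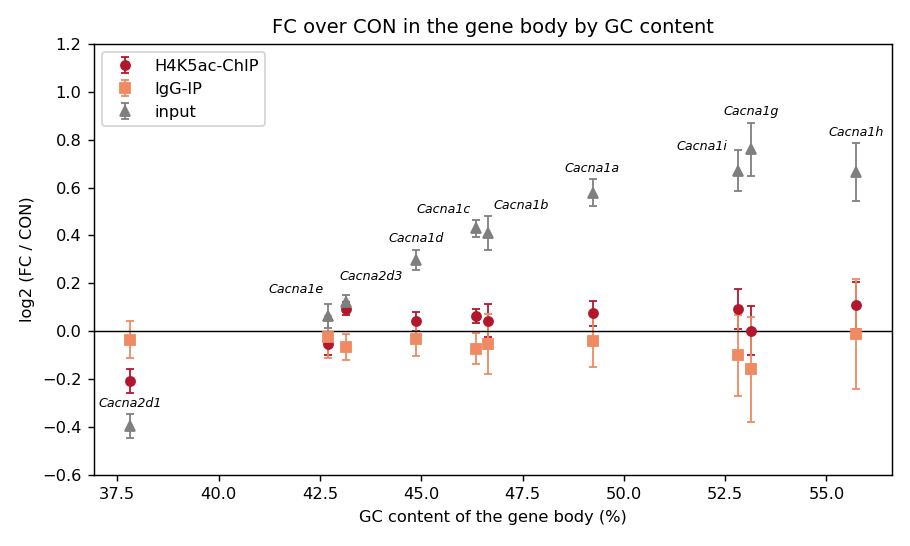
Log2 ratio of FC to CON in the gene body (vertical axis) against the GC content of the gene body (horizontal axis, percent) for H4K5ac-ChIP, IgG-IP and input, with exact 95% binomial intervals. Input climbs with GC from -0.40 in Cacna2d1 to 0.76 in Cacna1g, H4K5ac-ChIP stays between -0.21 and 0.11, and IgG-IP between -0.16 and -0.01.

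The promoter was taken as the 5 kb upstream of the first TSS, and more than 50 reads, a threshold used in the study, were found in 9 of 10 members in FC, where 72.6% of 22367 protein-coding genes had them, and in 10 of 10 in CON, where 75.3% had them. Most genes pass this threshold with the counting used here. In the paper it marked genes above the average promoter count, and most genes did not pass it. Passing it here therefore does not mean above average. With a promoter of 2 kb, 4 of 10 passed in each group, where 36.1% of all genes did in FC and 40.7% in CON. With 5 kb, Cacna1a was the exception, with 44 reads in FC and 70 in CON. Its promoter so defined lies before the non-coding start, and the 5 kb before the CpG-rich inner start held 81 and 92 reads. Cacna1c had 150 reads in FC and 197 in CON and Cacna1d 168 and 153, but both of these windows lie within the overlapping genes Dcp1b and Dcp1a. The 5 kb before the inner start of Cacna1d held 148 and 129 reads.

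In FC against CON, 2 of 10 promoters were called higher by the same measure, where 17.5% of 21107 were, and 3 of 10 lower, where 10.3% were. The higher ones were Cacna1e, with 167 reads in FC and 144 in CON (log2 0.40, 0.07 to 0.73), and Cacna1i, with 96 and 76 (0.52, 0.07 to 0.98). In both promoters IgG-IP was lower in FC, with 0.275 against 0.485 RPKM at Cacna1e and 0.234 against 0.437 at Cacna1i. Input was higher in FC, with 0.661 against 0.485 and 0.631 against 0.411. Less the input ratio, the log2 values were -0.05 (-0.55 to 0.45) and -0.09 (-0.69 to 0.50). Less the IgG-IP ratio, they were 1.22 (0.38 to 2.06) and 1.43 (0.49 to 2.36). The lower ones were Cacna1a (-0.48, -1.06 to 0.08), Cacna2d1 (-0.37, -0.79 to 0.04) and Cacna1h (-0.35, -0.76 to 0.05), whose intervals all included 0, and Cacna1h was at 0.0094 with a promoter of 2 kb. The Cacna1a call applies to the window before its non-coding start only. The 5 kb before its coding start held 81 reads in FC and 92 in CON, from libraries of 31605738 and 35962226 reads. With mapping quality of 50 or more 4 promoters were higher (19.2% of all), and with 1 read per position and strand 1 was lower (8.77%). Cacna1d lay just under the threshold, at 0.32, with an interval that reached 0, in a window within Dcp1a. Within 1 kb of its starts the log2 ratio was 0.78 (0.22 to 1.36) at the outer and 0.70 (0.05 to 1.37) at the inner one. Input there held 33 reads in FC and 34 in CON at the outer start, and 31 and 15 at the inner one. Ratios within 1 kb of the starts of other members are not given here. The 10 promoters held 44 to 197 reads.

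The 16 remaining genes of the channel and its relatives were counted in the same way: the pore-forming Cacna1f of the retina and Cacna1s of skeletal muscle, the auxiliary Cacna2d2, Cacna2d4 and the intracellular beta subunits Cacnb1 to Cacnb4, and Cacng1 to Cacng8, several of which encode regulators of AMPA receptors. Over IgG-IP in the gene body, 5 of 16 reached 2-fold in FC and 3 of 16 in CON, again near the shares of all genes. Cacnb1 was highest in FC, with log2 1.53 (1.21 to 1.86), and had 1.01 (0.74 to 1.29) in CON. Cacna2d4, which starts 40.3 kb upstream of Cacna1c on the other strand, had 1.37 in FC and 1.10 in CON. In FC against CON, 1 of 16 gene bodies was called higher, Cacng1, with 353 and 291 reads (log2 0.46, 0.24 to 0.69), beside 77 and 100 in IgG-IP and 456 and 253 in input, and 0 of 16 lower, where 10.8% and 4.06% of all genes were. Among promoters, 7 of 16 were called higher in FC (Cacna1s, Cacna2d2, Cacng2, Cacng5, Cacng6, Cacng7 and Cacng8) and 0 of 16 lower, where 17.5% and 10.3% of all promoters were. The intervals of Cacng2, Cacng6 and Cacng8 included 0. The largest was Cacna2d2 with 83 and 59 reads (log2 0.68, 0.18 to 1.19), where input gave 1.06 (0.67 to 1.47). Cacng5 had 136 and 107 reads (0.53, 0.16 to 0.91), and its input held 0.622 RPKM in FC and 0.389 in CON. Cacng7 had 147 and 130 reads (0.36, 0.01 to 0.72), with an input ratio of 0.03 (-0.40 to 0.45). Less the input ratio, Cacng5 gave -0.15 (-0.70 to 0.41) and Cacng7 0.34 (-0.19 to 0.87). Less the IgG-IP ratio, they gave 0.66 (-0.18 to 1.51) and -0.08 (-0.92 to 0.76). The difference between the 16 genes and the 10 members was not tested.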

How the data were processed

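Aligned reads were deposited for 6 libraries of mouse hippocampus. The authors sequenced barcoded libraries on the SOLiD system, aligned 50-bp reads to mm9 with Bioscope and deposited 1 line per aligned read, with its position, strand and a mapping quality score of 4 to 100. Library totals ran from 14549689 to 45673239 reads. Barcoded libraries were mixed in equal amounts before sequencing, so that totals do not measure the amount of immunoprecipitated DNA.

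From these lines, reads that overlapped an interval by at least 1 base were counted for every gene of the NCBIM37 annotation, and divided by length and by the total of the library (RPKM). Steps at starts and ends used the midpoint of the read. Ratios of libraries were tested for genes with 20 or more reads in both libraries together. A ratio over a control was called at 2-fold and FC against CON at 25% higher or 20% lower. Exact Poisson (densities) and Clopper-Pearson (ratios) intervals of 95% cover counting error only, since reads of PCR-amplified libraries are not independent molecules, and no p-value was computed because each group had 1 library per antibody. The counting and interval steps were tested on simulated data. GC content was handled by subtracting the median of protein-coding genes in the same 1% step.

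Named genes were all 10 members, 16 other genes of channel subunits and the Cacng family, and genes inside a member. Members, lists and tests were chosen with earlier results of these data known, and the inner starts, the steps and the GC correction of ratios over controls were added after seeing the profiles. RefSeq promoter sequences (of a later build, GRCm38) were placed in mm9 by an exact match at a single position, and printed sequences were read from NCBIM37. Alternatives were 1 read per position and strand, a mapping quality of 50 or more, midpoint assignment, scaling to the median gene, the longest coding transcript, gene bodies without the first 5 kb, a promoter of 2 kb, GC content, subtraction of the control libraries, and sides of 10 or 50 kb for the steps. Steps at the first annotated start were not recomputed under these alternatives. Python 3.11.15, NumPy 2.4.6, SciPy 1.17.1, pandas 2.3.3 and matplotlib 3.10.9 were used.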

Additional observations from a re-analysis of the deposited data

How the results depend on the processing

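The ratios over IgG-IP depended most on scaling and GC content. Scaled to the median protein-coding gene, 0 members reached 2-fold over IgG-IP in FC and 0 in CON, and the medians were 0.20 and 0.13. After subtracting the median of genes with like GC content (added after seeing the data) the counts were also 0 and 0, with medians of 0.066 and 0.096. With 1 read per position and strand the FC median was 0.80, with mapping quality of 50 or more 0.81, and 1 member remained above 2-fold in CON in either case. Over input, the medians were 0.15 in FC and 0.099 in CON after scaling and 0.089 and 0.12 after the GC correction, and the CON count fell to 0 under both and with 1 read per position. A promoter of 2 kb left 4 members above 50 reads in FC and 4 in CON. For FC over CON in the gene body, subtracting the input ratio gave 6 lower members and a median of -0.37, subtracting the IgG-IP ratio a median of 0.12, and the GC correction a median of -0.022. With mapping quality of 50 or more 4 promoters were higher, and with 1 read per position 1 was lower.

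Signs were followed for ratios that were called and for steps with an interval on one side of 0 at inner starts and last ends. Steps at the first annotated start were not recomputed. Signs turned in 4 cases: the Cacna1h promoter in FC over CON (0.0094 with 2 kb), the end of Cacna2d3 in CON (0.13 with sides of 10 kb), the end of Cacna1i in CON (-0.026 with sides of 50 kb) and the Cacna1c start at 416 kb in FC (0.020 with sides of 10 kb). Of the 120 alternatives of steps at inner starts and ends, 82 stayed within the counting interval. Another 35 moved outside it, and 3 are among the turned signs. Ratios of FC over CON in the gene body, none of them called, turned sign in 9 of 10 members less input, in 5 with the GC correction, in 1 each with scaling and without the first 5 kb, and in 0 under the other 5 alternatives. In the promoter, 3 of 10 turned sign with 2 kb (Cacna1b, Cacna1g and Cacna1h), 1 with mapping quality of 50 or more (Cacna1g) and 0 under the other 3. The causes were not tested. For single members, 68 of 90 alternatives of FC over CON in the gene body and 48 of 50 in the promoter moved by less than the counting interval. No paired analysis was possible because each group had 1 library per antibody, and leaving out a replicate was not possible for the same reason. Differences within counting intervals of a promoter were not detectable at this depth.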
